A study of Homo sapiens with 6 samples.

Results

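TXNIP, the alpha-arrestins ARRDC2, ARRDC3 and ARRDC4, and the transcription factor partners MLX and MLXIP were examined in HEK293T, an established cell line of human embryonic kidney origin in which the large T antigen of SV40 is expressed. They were chosen by gene symbol, and 8 probes of the 48701 on the array carried one of the 6 symbols, out of 18774 genes named on the array. Cells were compared with no transfection (control), after 2 µg and after 4 µg of plasmid DNA that holds the miR-23a27a24-2 cluster, a single transcript from which miR-23a, miR-27a and miR-24 are cut. Each group held 2 biological duplicates, so 6 arrays were read in all. Cells at both doses were transfected in a single well of a 6-well plate, whereas control cells were left untransfected, and there was no group with empty plasmid. The promoter of the plasmid and the time after transfection are not given in the sources used here. All arrays lay on 1 bead chip, with each group in adjacent positions, so chip position and group cannot be told apart. The values that led to the choice of these genes were their differences among the 3 groups, in particular the higher ARRDC4 at 2 µg and lower ARRDC4 at 4 µg. Those differences are therefore given below as a description with standard errors and without p-values.

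TXNIP binds and inhibits thioredoxin and promotes the removal of glucose transporters from the cell surface. It is an alpha-arrestin, a family of adaptors with an arrestin fold that link membrane proteins to ubiquitin ligases of the NEDD4 family. MLXIP, also called MondoA, pairs with MLX, and when glucose 6-phosphate accumulates the pair enters the nucleus and binds carbohydrate response elements. TXNIP and ARRDC4 are its best known targets.

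The 3 main products of the transfected cluster are shown first because they define the treatment. Their mature sequences (RefSeq, GRCh38.p14, chromosome 19, minus strand) are printed 5′ to 3′ with the seed, bases 2 to 8, in capitals, and no seed was shared in full between them.
hsa-miR-23a-3p: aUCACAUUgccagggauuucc
hsa-miR-27a-3p: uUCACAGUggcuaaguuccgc
hsa-miR-24-3p: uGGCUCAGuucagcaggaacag

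The promoters of TXNIP and ARRDC4 are shown because both genes were lower at 4 µg than at 2 µg. Each line holds the 250 bases before an annotated start of transcription (RefSeq, GRCh38.p14), with matches to CCAAT, to CACGTG (E-box) and to the tandem carbohydrate response element in capitals, the last being a CACGNG repeated after a gap of 5 bases. The TXNIP window lies at chr1:145996580-145996829 on the minus strand and the ARRDC4 window at chr15:97960453-97960702 on the plus strand.
TXNIP: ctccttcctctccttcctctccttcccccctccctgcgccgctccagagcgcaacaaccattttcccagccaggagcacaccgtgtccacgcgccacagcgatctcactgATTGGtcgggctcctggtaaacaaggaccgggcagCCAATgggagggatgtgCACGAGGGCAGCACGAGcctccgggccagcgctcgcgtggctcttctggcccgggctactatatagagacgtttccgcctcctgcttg
ARRDC4: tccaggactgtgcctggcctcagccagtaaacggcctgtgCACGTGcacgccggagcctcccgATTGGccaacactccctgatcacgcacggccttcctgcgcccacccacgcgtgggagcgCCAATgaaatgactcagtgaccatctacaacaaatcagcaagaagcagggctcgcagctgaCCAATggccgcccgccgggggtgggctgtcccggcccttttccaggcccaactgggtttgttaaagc

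All 6 genes had at least 1 window in the promoter table, 9 windows in all, each of 250 bases before and 50 after the start, and both strands were searched. The TXNIP window held 2 CCAAT boxes, at -140 and -105, and the tandem element from -88 to -72, with no overlap between matches. The ARRDC4 window held 3 CCAAT boxes, at -187, -128 and -67, and 1 E-box at -210, again with no overlap. The tandem pattern was written after the TXNIP promoter had been seen, so its match there is no result, and 0.057% of 35116 windows held it. CACGTG was present in 7.26% of all windows and, among the 6 genes, also in MLX at -50. CCAAT was present in 34.6% of all windows and in at least 1 window of each of the 6 genes. A looser carbohydrate response element, CANGNG and CNCNTG with 5 bases between them, and the ATF element TGATGNAA had 0 matches in the 9 windows, against 0.564% and 3.62% of all windows. These matches describe the letters of the windows and do not show binding.

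**Figure D1:**
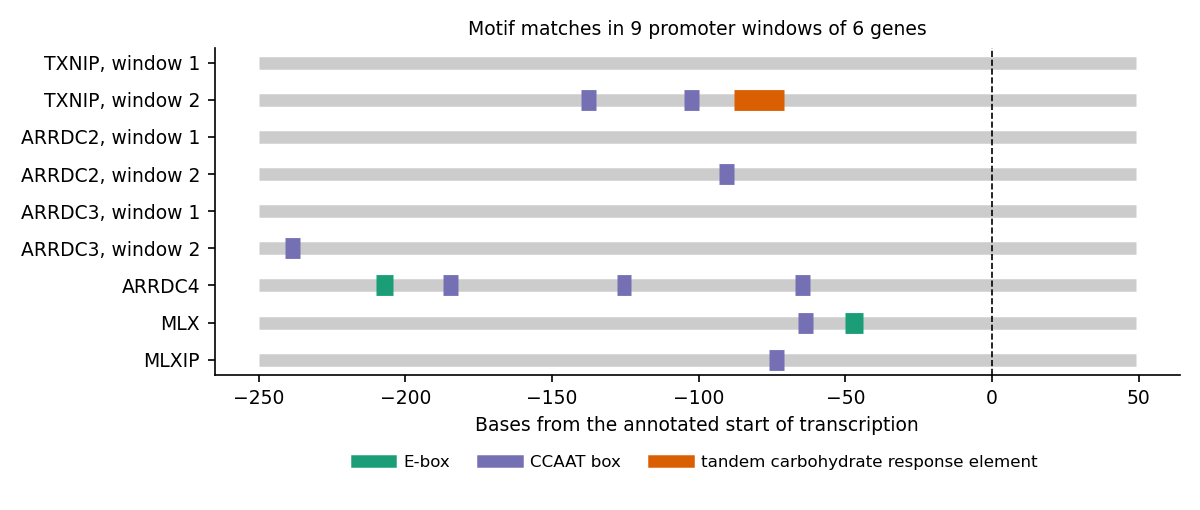
Positions of motif matches in the 9 promoter windows of the 6 genes, in bases from the annotated start of transcription (dashed line), with grey bars for the windows and coloured blocks for matches. ARRDC4 has 3 CCAAT boxes and 1 E-box, and the second TXNIP window, the one printed above, has 2 CCAAT boxes and the tandem element.

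Of the 48701 probes, between 9278 and 10371 per array were detected, which here means a detection p-value under 0.01. The median number of beads behind a probe value was 40. The normalized log2 values of duplicates correlated across genes, which are not independent replicates, at 0.990 to 0.994. Of 6 genes marking this line, VIM and LIN28B were detected on all arrays and PAX2 and INA on 0 of 6. Of 6 haematopoietic markers on the array 5 were detected on 0 arrays, among them PTPRC, and CD68 on all. Of 6 fibroblast markers 3 were at 0, among them DCN, and COL3A1 was detected on all arrays. Of 5 epithelial markers CDH1 was at 0, whereas KRT8, KRT18 and KRT19 were detected on all 6 arrays. Of 3 hepatocyte markers 2 were detected on 0 arrays, and their summed level was 169 to 187 in the control, 195 to 216 at 2 µg and 186 to 204 at 4 µg. The summed normalized intensity of the epithelial markers was 3659 to 4953 in the control, 2406 to 2760 at 2 µg and 2846 to 3112 at 4 µg. For fibroblast markers it was 650 to 654, 411 to 452 and 508 to 516, for haematopoietic markers 416 to 422, 528 to 653 and 536 to 602, and for the line's own markers 6302 to 6744, 6202 to 6342 and 5415 to 5647, in the same order of groups. Single markers of the line moved further than their sum. At 2 µg against the control, 1 of 4 tested was called higher and 2 lower at a limma adjusted p under 0.05. Their log2 differences ran from -2.28 to 0.44. At 4 µg 0 were higher and 1 lower, with differences from -1.85 to 0.01. Over all tested genes 21.8% were higher and 19.8% lower at 2 µg, and 11.8% and 10.2% at 4 µg. The part of these shifts in the results below was not tested. In RNA from whole cultures, a change in every cell and a change in a share of the cells cannot be told apart.

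TXNIP (ILMN_1697448, NM_006472), whose gene spans chr1:145992435-145996579 on the minus strand of GRCh38.p14, was detected on all 6 arrays. Its scanner intensity, the mean brightness of its beads before any correction, was 3062 and 3141 in the control, 2550 and 2391 at 2 µg, and 1376 and 1393 at 4 µg. The bead standard error was between 3.15% and 5.60% of these values. The normalized log2 intensity was 11.67 and 11.59 in the control, 11.29 and 11.13 at 2 µg, and 10.19 and 10.09 at 4 µg. The groups therefore stood in the order control, 2 µg, 4 µg from high to low, and no pair of groups overlapped. Duplicates likewise did not overlap for 69.6% of tested genes at 2 µg against control, 65.8% at 4 µg against control and 57.3% at 4 µg against 2 µg. Duplicates differed by 0.09, 0.16 and 0.10, less than the gap between any 2 groups.

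The step from 2 µg to 4 µg was the larger one for TXNIP. At 4 µg TXNIP was 1.07 lower on the log2 scale than at 2 µg (SE 0.13), a 2.10-fold difference. Against the control it was 1.49 lower at 4 µg (SE 0.13), or 2.80-fold, the 4th lowest difference of 8018 tested genes. At 2 µg it was 0.42 lower than in the control (SE 0.13), or 1.33-fold, with rank 1537 from the lowest. In the authors' processed intensities TXNIP averaged 1139 ± 34 at 4 µg, 2434 ± 162 at 2 µg and 3087 ± 150 in the control (SD, n = 2 each), in the same order.

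ARRDC4 (ILMN_1660544, NM_183376), at chr15:97960703-97973833 on the plus strand, is the alpha-arrestin closest to TXNIP in its known regulation by glucose. Its probe was detected on all 6 arrays, at a lower intensity. The scanner intensity was 308 and 346 in the control, 450 and 457 at 2 µg, and 284 and 294 at 4 µg. In normalized log2 units the arrays read 7.58 and 7.73 in the control, 8.33 and 8.39 at 2 µg, and 7.17 and 7.13 at 4 µg. The 2 µg arrays were above both control arrays and the 4 µg arrays below both, so the order of the levels was 2 µg, control, 4 µg.

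At 2 µg ARRDC4 was 0.71 higher than in the control on the log2 scale (SE 0.13), or 1.63-fold. At 4 µg it was 0.51 lower than in the control (SE 0.13), or 1.42-fold. Between the doses the difference was -1.21 (SE 0.13), with 4 µg 2.31-fold below 2 µg, the 5th lowest value of 8018 genes. The 3 differences rest on unequal ground before normalization. The nearest scanner values of the 4 µg and control arrays, 294 and 308, lay 14.4 apart, with a bead standard error of that gap of 17.4. Those of the 2 µg and control arrays, 450 and 346, lay 104 apart, with a bead standard error of 31.3. In the authors' processed intensities ARRDC4 averaged 133 ± 2.8 at 4 µg, 316 ± 6.5 at 2 µg and 182 ± 17 in the control (SD, n = 2 each).

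**Figure D2:**
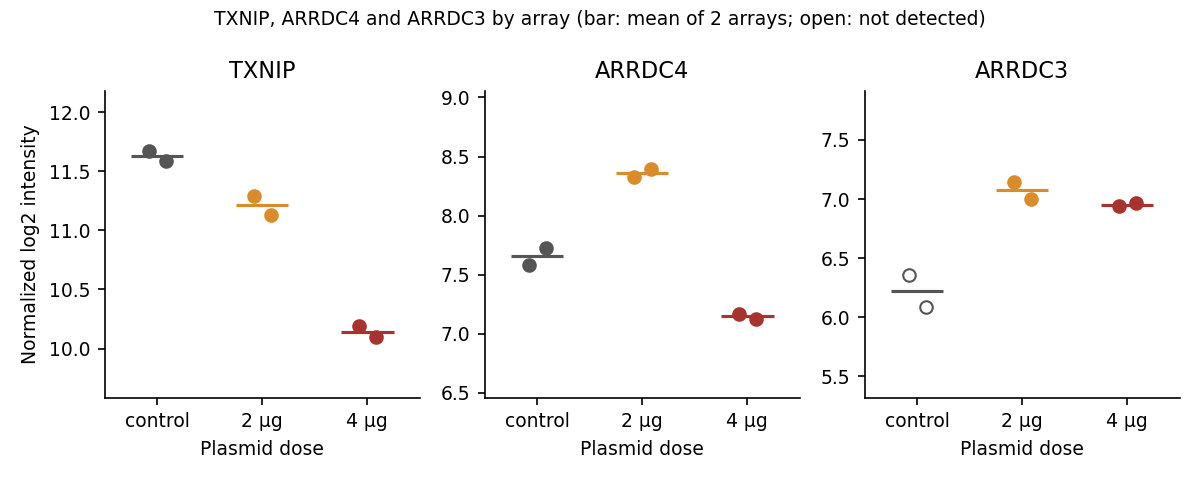
Normalized log2 intensity of TXNIP, ARRDC4 and ARRDC3 on each of the 6 arrays, by plasmid dose, with a bar at the mean of each pair and open circles where the probe was not detected. TXNIP steps down with dose, ARRDC4 is highest at 2 µg and lowest at 4 µg, and ARRDC3 is higher at both doses than in the control.

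The opposite behaviour of ARRDC4 at the doses lay in the step between control and 2 µg. There, the change of ARRDC4 exceeded that of TXNIP by 1.12 on the log2 scale (SE 0.13, from 3 residual degrees of freedom). From 2 µg to 4 µg both were lower by similar amounts, and the change of ARRDC4 differed from that of TXNIP by -0.14 (SE 0.13). At 4 µg against the control the change of ARRDC4 was thus still 0.98 (SE 0.13) above that of TXNIP. The pair was chosen for this contrast, so the values carry no test.

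ARRDC3 (ILMN_1813769, NM_020801), at chr5:91368631-91383317 on the minus strand, is an alpha-arrestin that directs adrenergic receptors and integrin beta 4 to degradation. It was detected on both arrays of each dose but on 0 of 2 control arrays, where its detection p-values were 0.0153 and 0.0422, just outside the limit of 0.01. The scanner intensity was 216 and 203 in the control, 281 and 253 at 2 µg, and 260 and 274 at 4 µg. Taking the detection limit as the control level, ARRDC3 was at least 1.54-fold higher at 2 µg and at least 1.42-fold higher at 4 µg. Measured means in normalized log2 units were 6.95 at 4 µg, 7.07 at 2 µg and 6.22 in the control. Because the probe entered the tests only through the transfected groups, its difference from the control supports nothing further. The doses lay close, with a log2 difference of -0.12 for 4 µg minus 2 µg (SE 0.14), within its error, and of 0.04 under median scaling of all probes.

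TXNIP, ARRDC4 and ARRDC3 differed in their measured values across the doses. The genes were chosen on these differences, so this is a description without a test. From 2 µg to 4 µg the change of ARRDC3 exceeded that of ARRDC4 by 1.09 (SE 0.19) and that of TXNIP by 0.95 (SE 0.09) on the log2 scale.

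ARRDC2, MLX and MLXIP were not detected on any of the 6 arrays, and no difference is given for them. ARRDC2, a further alpha-arrestin (chr19:18001124-18014102), had 3 probes. ILMN_1655612 came closest to detection, with p-values from 0.0182 to 0.238 and a scanner intensity from 170 to 213. ILMN_1710229 read 125 to 150 and ILMN_1715181 143 to 169, with lowest detection p-values of 0.516 and 0.319. The single MLX probe (ILMN_1792207; gene at chr17:42567100-42573203) read 145 to 195, with p-values from 0.0633 to 0.570. The MLXIP probe (ILMN_1693987; chr12:122078756-122147344) read 136 to 163, with p-values from 0.317 to 0.582. These probes give no measurement of the MondoA and MLX transcripts in any group, and they do not show that the transcripts were absent. In the whole table, the lowest scanner value of a detected probe was between 216 and 236 per array.

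**Figure D3:**
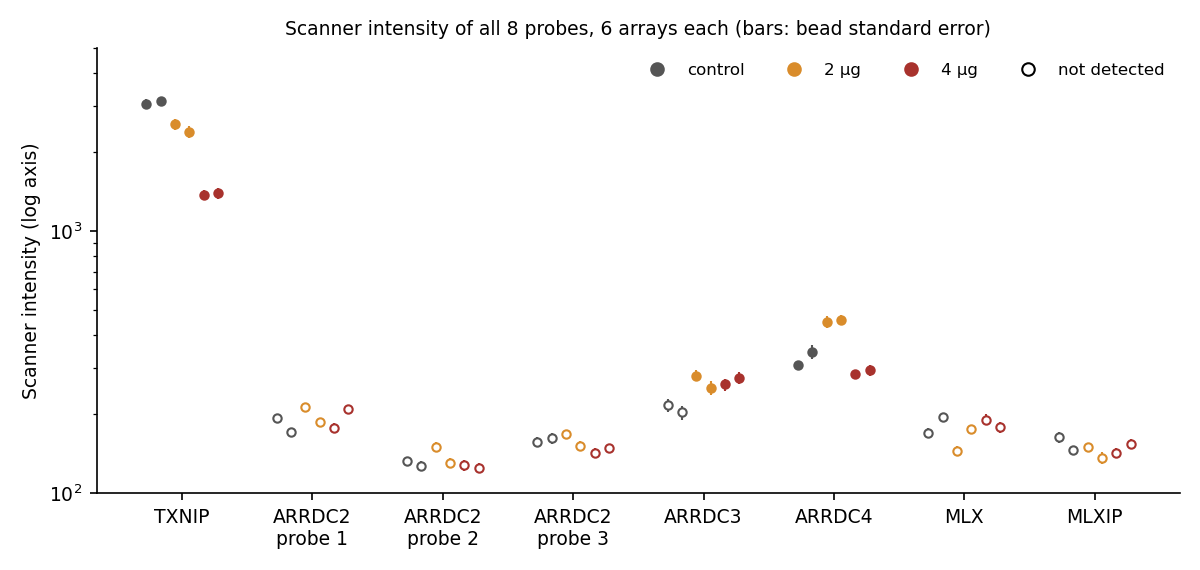
Scanner intensity (log axis) of the 8 probes on the 6 arrays, coloured by group, with bead standard errors as bars and open circles for values not detected. The 5 probes of ARRDC2, MLX and MLXIP are open on every array, between 125 and 213, below ARRDC4 at 284 to 457 and TXNIP at 1376 to 3141.

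The background to these differences was wide. At an adjusted p under 0.05 by limma over all tested genes, 3335 of 8018 genes (41.6%) were called at 2 µg against the control, 1760 (22.0%) at 4 µg against the control and 705 (8.79%) at 4 µg against 2 µg. Split by direction, 21.8% were higher and 19.8% lower at 2 µg than in the control, 11.8% and 10.2% at 4 µg than in the control, and 5.23% and 3.57% at 4 µg than at 2 µg. TXNIP and ARRDC4 passed the same threshold in all 3 comparisons. The genes were chosen on these contrasts, so passing is a description and no test of them, and ARRDC3 is not counted because its probe entered through the transfected groups. Some of the calls were lost when the processing was changed. The TXNIP call at 2 µg ended without control replicate 1 (log2 difference -0.37), control replicate 2 (-0.46) or 2 µg replicate 2 (-0.34), with the authors' processed table and under median scaling of all probes. The ARRDC4 call at 4 µg against the control ended without control replicate 2 (-0.43), 4 µg replicate 1 (-0.53) or 4 µg replicate 2 (-0.48), and under median scaling of all probes (-0.34).

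In the fit over all genes 2 of 8018 (0.0249%) were called higher at 2 µg and lower at 4 µg, both against the same control arrays. They were ARRDC4, which was chosen for this pattern so that the count says nothing about it, and SEH1L, a nucleoporin that also belongs to the GATOR2 complex of amino acid sensing. The opposite pattern, lower at 2 µg and higher at 4 µg, was called for 1 gene (0.0125%). With other settings between 0 and 5 genes had the pattern of ARRDC4. The number was 0 under median scaling of all probes and without control replicate 2, 4 µg replicate 1 or 4 µg replicate 2, and ARRDC4 was among the genes in each of the other 11 alternatives.

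The genes most like ARRDC4 across the 6 arrays were found by the root mean square difference of log2 values taken relative to the control mean. They were MCM6, a subunit of the replicative helicase (0.17), GEMIN5, which recognises small nuclear RNAs for the SMN complex (0.18), FARSA, the alpha subunit of phenylalanyl-tRNA synthetase (0.19), and SEH1L (0.21). The differences of FARSA were 0.53 for 2 µg and -0.46 for 4 µg, each minus the control. For MCM6 they were 0.54 and -0.35, for SEH1L 0.39 and -0.42, and for GEMIN5 0.46 and -0.34, the second being a value below detection on both 4 µg arrays. In these group differences MCM6, FARSA and SEH1L, detected on all arrays, went less far in either direction than ARRDC4.

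For TXNIP the likeness was looser. STC1, the secreted glycoprotein stanniocalcin 1, came nearest (0.26), with differences of -0.73 at 2 µg and -1.20 at 4 µg, each minus the control. ASMTL followed (0.32), then CCND1, cyclin D1 (0.33), with -0.33 and -0.95, and SPARC, a matrix glycoprotein detected on the 2 control arrays alone (0.35). STC1, ASMTL and CCND1, detected on all arrays, were less far below the control at 4 µg than TXNIP was.

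**Figure D4:**
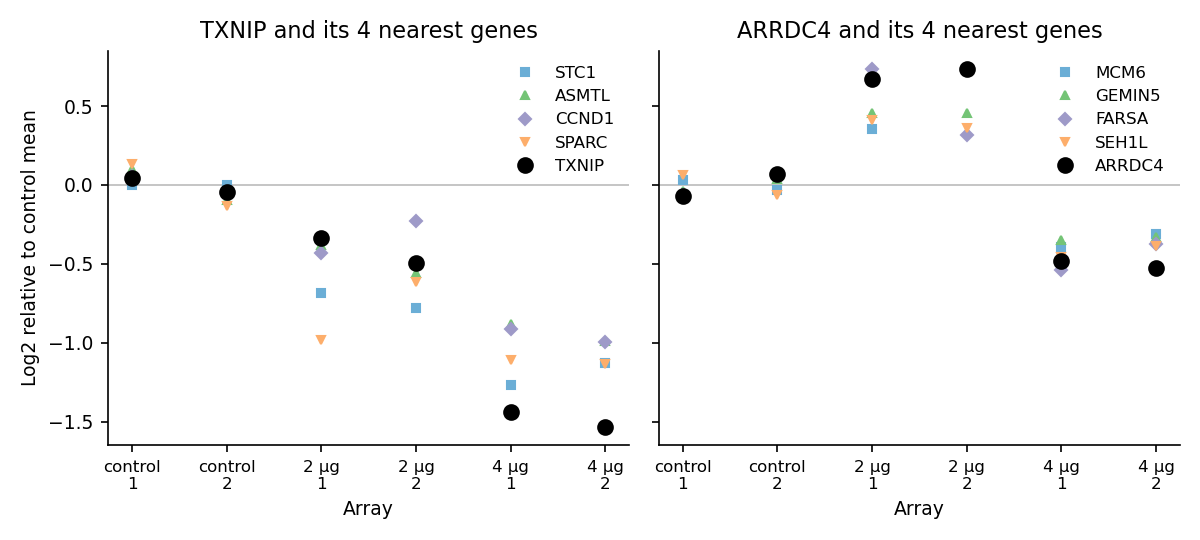
Normalized log2 intensity relative to the control mean on each array for TXNIP and ARRDC4 (black circles) and the 4 genes nearest to each. The genes near ARRDC4 are above the control mean at 2 µg and below it at 4 µg, and TXNIP lies below STC1, ASMTL and CCND1 on both 4 µg arrays, where SPARC was not detected.

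Genes around the set were described by 8 lists taken from general knowledge. Of 104 listed genes 93 were named on the array and 65 were tested. At 4 µg against the control 8 were called higher and 9 lower (26.2%, with 22.0% of all tested genes), with a median log2 difference of 0.02, against 0.03 for all tested genes. At 4 µg against 2 µg 2 were called higher and 2 lower (6.15%, with 8.79% of all genes). At 2 µg against the control 16 were higher and 15 lower (47.7%, with 41.6% of all genes). The counts of the single lists below stand against shares over all tested genes of 11.8% higher and 10.2% lower at 4 µg against the control, 21.8% and 19.8% at 2 µg against the control, and 5.23% and 3.57% at 4 µg against 2 µg. The counts at 4 µg rest on few arrays. Against the control they were 10 without control replicate 1 and 6 without control replicate 2, 4 µg replicate 1 or 4 µg replicate 2, and between the doses 1 without 2 µg replicate 1 and 0 without either 4 µg array. At 2 µg the count was 18 without control replicate 2.

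The next list held known glucose-responsive targets of MondoA and of its paralog ChREBP, other than the 2 in the set. Several of the listed genes serve lipid synthesis. Of 9 tested, 4 were called lower and 0 higher at 4 µg against the control, with a median log2 difference of -0.42, where 10.2% of all tested genes were lower. FASN, the fatty acid synthase, fell by 0.53 (SE 0.13; limma adjusted p = 0.0178), ELOVL6, a fatty acid elongase, fell by 0.47 (SE 0.14; 0.0356), and SCD, the stearoyl-CoA desaturase, fell by 0.42 (SE 0.13; 0.0410). At 2 µg against the control SCD fell by 0.81 (limma adjusted p = 0.000791) and FASN fell by 0.44 (0.0213), the FASN call being lost without control replicate 1 (0.0678), control replicate 2 (0.0852) or 2 µg replicate 1 (0.0906). From 2 µg to 4 µg SCD thus stood on the other side from TXNIP, with 0.39 for 4 µg minus 2 µg (limma adjusted p = 0.0885), and FASN gave -0.09. At 4 µg minus control the FASN and SCD calls ended without any 1 of the 4 arrays compared. The differences then ran from -0.62 to -0.44 for FASN and from -0.52 to -0.33 for SCD. The ELOVL6 call ended without control replicate 2 (-0.32), 4 µg replicate 1 (-0.52) or 4 µg replicate 2 (-0.41). It also ended with the authors' processed table (limma adjusted p = 0.0969). Under median scaling of all probes, which moved the median of all tested genes to 0.184, the FASN, SCD and ELOVL6 calls all ended. There FASN gave -0.42 (limma adjusted p = 0.0873), SCD -0.34 (0.163) and ELOVL6 -0.27 (0.288). Without a detection filter the SCD and ELOVL6 calls ended too (0.0643 and 0.0677). RGS16, a regulator of G protein signalling, came closest to ARRDC4 in this list. It was 0.56 higher at 2 µg than in the control (limma adjusted p = 0.00597) and 0.71 lower at 4 µg than at 2 µg (0.0114), while 4 µg minus control gave -0.15 (0.422). The call between the doses ended without 4 µg replicate 1 (0.0680) or 4 µg replicate 2 (0.0912). At 2 µg against the control 1 gene of this list was higher and 4 were lower, and RGS16 was the 1 gene called between the doses.

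In the network of MLX and MAX partners, which share DNA sites with MondoA, 6 of 10 genes on the array were tested. MAX itself and MLXIPL, the gene of ChREBP, were on the list but not among the genes tested. MXD1, a repressor that pairs with MAX, was undetected in the control, against which it stood at least 1.61-fold higher at 4 µg (limma adjusted p = 0.00183) and at least 2.09-fold higher at 2 µg (0.000111). Its probe entered the tests only through the transfected groups, and without a detection filter the adjusted p was 0.0124 at 4 µg and 0.00151 at 2 µg. MXD4, a related repressor, fell by 0.78 at 4 µg (SE 0.13; limma adjusted p = 0.00305) and fell by 1.19 at 2 µg (8.87e-05). MYC, the activating partner of MAX, was 0.54 higher at 2 µg (limma adjusted p = 0.0264), which was lost without control replicate 1 (a difference of 0.33; 0.204) or 2 µg replicate 1 (0.125) and without a detection filter (0.0737). At 4 µg the MYC difference from the control was 0.02 (0.934). In this list 2 genes were higher and 3 lower at 2 µg, 1 and 1 at 4 µg, and 0 were called between the doses, where 4 µg minus 2 µg gave 0.41 for MXD4 and -0.52 for MYC (limma adjusted p = 0.0742 and 0.0838). Under median scaling of all probes MXD4 gave 0.57 and passed the threshold (0.0328).

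Among 13 tested genes of glucose entry and phosphorylation, 1 was higher and 2 lower at 4 µg against the control, 1 and 4 at 2 µg, and 1 and 0 between the doses. SLC2A3, the glucose transporter GLUT3, rose by 0.60 at 4 µg (SE 0.14; limma adjusted p = 0.0130) and by 0.92 at 2 µg (0.000546). The SLC2A3 call at 4 µg ended without control replicate 2 (0.0880), 4 µg replicate 1 (0.0620) or 4 µg replicate 2 (0.0870), as well as under median scaling of the tested probes (a difference of 0.35; 0.0947). Its near-identical copy SLC2A14 could share the signal. PFKFB4, which sets the level of fructose 2,6-bisphosphate, fell by 0.72 at 4 µg (SE 0.12; limma adjusted p = 0.00313) and fell by 1.27 at 2 µg (4.43e-05). PFKFB4 was 0.54 higher at 4 µg than at 2 µg (limma adjusted p = 0.0247), and this call ended without 2 µg replicate 1 (0.0669), 2 µg replicate 2 (0.0640), 4 µg replicate 1 (0.160) or 4 µg replicate 2 (0.136). SLC2A1, the transporter GLUT1 that TXNIP is known to act on, and HK2, a hexokinase and MondoA target, were picked for their roles after their values had been seen. At 4 µg minus control they gave -0.13 and -0.43 (limma adjusted p = 0.678 and 0.0832).

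Of the other arrestin-fold proteins 5 were tested, with 2 higher and 1 lower at each dose against the control and 0 called between the doses. The gene called lower was ARRB1, the adaptor beta-arrestin 1, and its 2 kept probes disagreed. The brighter one, ILMN_1819608, fell by 0.85 at 4 µg (SE 0.13; limma adjusted p = 0.00175) and fell by 0.89 at 2 µg (0.000423). The other, ILMN_1735218, annotated to the RefSeq mRNA NM_004041, gave 0.01 at 4 µg and -0.10 at 2 µg, each minus the control. The mean of both probes gave -0.42 for ARRB1 at 4 µg and -0.50 at 2 µg (limma adjusted p = 0.0370 and 0.0101), so no direction is given for this gene. The retromer-type subunits VPS26C and VPS26A rose by 0.45 and 0.49 at 4 µg (limma adjusted p = 0.0319 and 0.0369). Both calls ended without a detection filter (limma adjusted p = 0.0511 and 0.0795). The VPS26C call ended without any 1 of the 4 arrays compared, with adjusted p from 0.0632 to 0.211, and that of VPS26A without control replicate 2 (0.210), 4 µg replicate 1 (0.0769) or 4 µg replicate 2 (0.231). At 2 µg VPS26C was 0.54 higher (limma adjusted p = 0.00734), a call lost without control replicate 1 (0.0522). ARR3, a cone arrestin, was detected only at 2 µg, where it was at least 1.10-fold above the control (limma adjusted p = 0.0351). Its probe entered the tests only through that group. The call was lost without a detection filter (0.0608), without any 1 of the 4 arrays compared (0.0525 to 0.179) and with 3 other settings.

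Ubiquitin ligases of the NEDD4 family, which bind the tails of alpha-arrestins, had 8 tested members. At 4 µg against the control 1 was higher and 1 lower, at 2 µg 2 and 0, and 0 were called between the doses. WWP2 rose by 0.76 at 4 µg (SE 0.14; limma adjusted p = 0.00406) and by 1.24 at 2 µg (8.96e-05). Its 4 µg arrays read 8.94 and 9.05 in normalized log2 units, its 2 µg arrays 9.60 and 9.35 and its control arrays 8.27 and 8.19, and 4 µg minus 2 µg gave -0.48 (limma adjusted p = 0.0540). This difference passed the threshold with 4 alternatives, among them without 2 µg replicate 2 (0.0435). NDFIP1, an adaptor of these ligases, fell by 0.53 at 4 µg (limma adjusted p = 0.0349). This call was lost without control replicate 1 (a difference of -0.55), control replicate 2 (-0.50) or 4 µg replicate 2 (-0.32). It was also lost with the authors' processed table (limma adjusted p = 0.0901) and without a detection filter (0.0841). Median scaling of all probes ended it too (a difference of -0.32, limma adjusted p = 0.202). NEDD4 itself was 0.58 higher at 2 µg (limma adjusted p = 0.0117), which ended without control replicate 2 (0.0706) or 2 µg replicate 1 (a difference of 0.38; 0.0715).

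In the thioredoxin system, the redox pathway that TXNIP inhibits, 11 genes were tested. At 4 µg against the control 1 was higher and 0 lower, at 2 µg 3 and 3, and between the doses 1 and 0. TXN, the thioredoxin bound by TXNIP and named here for that role, was -0.20 at 4 µg minus control (limma adjusted p = 0.274). At 2 µg TXN fell by 0.36 (limma adjusted p = 0.0405), which missed the threshold without any 1 of the 4 arrays compared (-0.40 to -0.32). It also missed it with a term for replicate number (0.0548) and when only the groups compared were fitted (0.0708). The loss of either 4 µg array gave that same fit. The fall was larger under median scaling of all probes (-0.58; 0.0111) or of the tested probes (-0.60; 0.00351). With the authors' processed table it was -0.53 (0.0114). At 4 µg minus control TXN passed only under median scaling of the tested probes (-0.51; 0.0172). Its other kept probes, ILMN_1343293 and ILMN_1680314, gave -0.35 and -0.62 at 2 µg and -0.21 and -0.47 at 4 µg. TXN2, the mitochondrial thioredoxin, was detected on 0 of 2 arrays at 2 µg, where it was at least 1.43-fold lower than in the control (limma adjusted p = 0.00168). Its probe entered the tests only through the control and 4 µg groups. Without a detection filter the adjusted p of TXN2 at 2 µg against the control was 0.00906. At 4 µg TXN2 was at least 1.17-fold higher than at 2 µg (limma adjusted p = 0.0449). This call ended without 2 µg replicate 1, 4 µg replicate 1 or 4 µg replicate 2. It also ended without a detection filter (limma adjusted p = 0.118) and when only the groups compared were fitted (0.069). GLRX2, a mitochondrial glutaredoxin undetected in the control, was at least 1.49-fold higher at 4 µg (limma adjusted p = 0.0289), which ended without control replicate 2 (0.207) or 4 µg replicate 1 (0.185). Its probe entered the tests only through the 4 µg group, and the call was lost without a detection filter (0.116). GLRX, the cytosolic glutaredoxin, was 0.52 lower at 2 µg (limma adjusted p = 0.0143), which ended without control replicate 2 (0.0884) or 2 µg replicate 1 (0.0640). PRDX6, a peroxiredoxin, gave -0.37 at 4 µg minus control (limma adjusted p = 0.0726), and it passed the threshold under median scaling of the tested probes (0.0125), with the authors' processed table (0.0456) and with an offset of 50 (0.0462).

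Energy sensors of the AMPK and mTOR pathways had 10 tested members. At 4 µg against the control 2 were higher and 0 lower, at 2 µg 4 and 0, and between the doses 0 and 1. PRKAB1, the beta 1 subunit of AMPK, the kinase that marks TXNIP for degradation, resembled RGS16 between the doses. It read 7.89 and 7.76 at 4 µg, 8.75 and 8.48 at 2 µg, and 7.40 and 7.35 in the control in normalized log2 units. The PRKAB1 difference was 0.45 for 4 µg minus control (limma adjusted p = 0.0386), 1.24 for 2 µg minus control (9.82e-05) and -0.78 for 4 µg minus 2 µg (0.0108). The first of these calls ended without any 1 of the 4 arrays compared, with adjusted p from 0.105 to 0.217, and the last without 2 µg replicate 1 (0.0546), 4 µg replicate 1 (0.0510) or 4 µg replicate 2 (0.0864). DDIT4, an inhibitor of mTOR complex 1 known to bind TXNIP, rose by 0.42 at 4 µg (limma adjusted p = 0.0421) and by 0.55 at 2 µg (0.00714). Its call at 4 µg ended without any 1 of the 4 arrays compared, with adjusted p from 0.0810 to 0.290. The calls of PRKAB1 and DDIT4 at 4 µg minus control also ended without a detection filter (limma adjusted p = 0.0715 and 0.0672). Under median scaling of the tested probes they ended as well (0.0539 and 0.0569). PRKAB2 gave -0.36 for 4 µg minus 2 µg (limma adjusted p = 0.133).

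Partners of ARRDC3 and the sorting machinery of the ESCRT pathway had 5 tested members, with 0 called at 4 µg against the control, 0 between the doses and 1 higher at 2 µg. STAM, a subunit of the first ESCRT complex, was 0.52 higher at 2 µg (limma adjusted p = 0.0132), which ended without control replicate 2 (0.0976) or 2 µg replicate 2 (0.0669). At 4 µg minus control STAM gave 0.38, TSG101, the ESCRT protein that binds ARRDC1 in particular, gave 0.25, and HGS, the partner of STAM, gave 0.12 (limma adjusted p = 0.0799, 0.201 and 0.517). The STAM difference at 4 µg passed the threshold with the authors' processed table (0.0410) and under median scaling of all probes (0.0245).

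**Figure D5:**
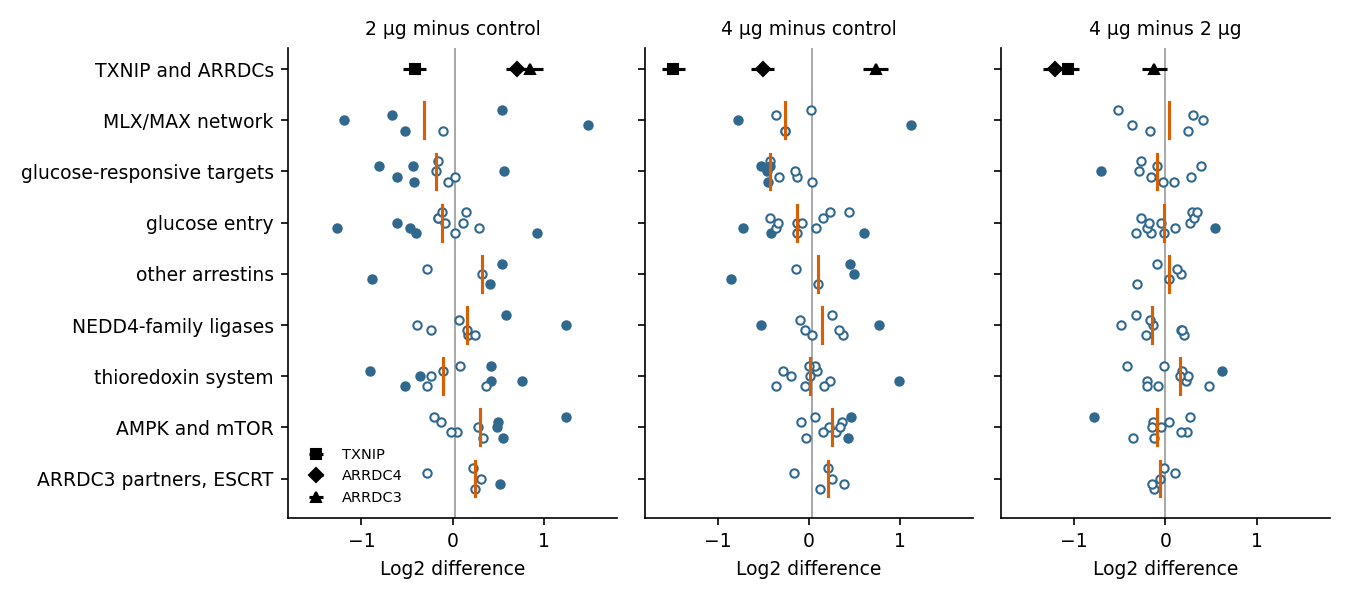
Log2 differences of TXNIP, ARRDC4 and ARRDC3 (black, with standard errors) and of the tested genes of the 8 lists (circles, filled where the limma adjusted p was under 0.05) in the 3 comparisons, with an orange mark at each list's median and a grey line at the median of all tested genes. At 4 µg minus 2 µg, TXNIP at -1.07 and ARRDC4 at -1.21 lie below every listed gene, the lowest of which is PRKAB1 at -0.78.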

How the data were processed

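RNA was extracted with TRIzol and made into biotinylated cRNA for Illumina Human-6 bead arrays, per the labels' protocols. The submitters' processing notes name BeadStudio, with no version. As deposited, a scanner value is the mean intensity of a probe's beads, with its standard error, neither normalized nor background-subtracted. The deposited bead counts per probe and detection p-values were used as given. The authors' processed intensity was on each array a straight line of the scanner value, found from the values.

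From there, limma 3.58.1 in R 4.3.3 was used: neqc with the detection p-values, an offset of 16, quantile normalization and log2. Differences are thus on the log2 scale with that offset, which understates changes of dim probes. GEO's platform annotation gave 1 symbol for 23687 probes, 35 had several and 24979 none, and RefSeq's gene table changed 0 symbols. Probes detected at p under 0.01 on both arrays of a group were kept (10021), and the brightest kept probe stood for a gene (8018 genes). The 3 groups were fitted together (limma, 3 residual and 7.42 prior degrees of freedom), called at a Benjamini-Hochberg adjusted p under 0.05, two-sided. With 2 arrays per group, array number limits precision, and an exact permutation test could not reach the threshold. On simulated data over 8018 genes for 4 µg minus control, changes of 1 on the log2 scale were recovered in 100% of cases and of 0.5 in 41%. The simulation changed only 200 genes, whereas 1760 were called in the data, and the adjusted threshold depends on that number. These shares therefore do not give the recovery in the data.

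"At least" folds set the detected group's mean against, per array, the higher of the probe's own value and the lowest detected value. The 6 genes and all lists were chosen with earlier results of these data known. Named list genes were the 2 with the smallest p at 4 µg against control and the 2 at 4 µg against 2 µg per list, and for TXNIP and ARRDC4 the 4 nearest profiles. Other scalings, filters, probe summaries, fits and the loss of each array were tried as 15 alternatives. Protein sequences were not used here.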

Additional observations from a re-analysis of the deposited data

Results flagged for a closer look

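ARRDC4 drew attention because both 2 µg arrays lay above both control arrays while both 4 µg arrays lay below them, with a log2 difference of -1.21 for 4 µg minus 2 µg. The value passed the threshold of the fit over all genes, but the gene was chosen for that behaviour, so the call is no test of it, and a cause was not tested.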

How the results depend on the processing

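TXNIP and ARRDC4 kept the direction of all 6 differences in each of the 15 alternatives, and ARRDC3 that of its 2 differences from the control in each of 14. The detection filters, the mean of kept probes, the replicate block and the fit of only the groups compared could not change these differences. Neither could the loss of an array outside the comparison. Each gene had a single probe, so these alternatives are no check of direction. Leaving out 1 array gave -0.50 to -0.34 for TXNIP at 2 µg minus control, -1.53 to -1.44 at 4 µg minus control and -1.15 to -0.99 at 4 µg minus 2 µg. For ARRDC4 it gave 0.63 to 0.78, -0.58 to -0.43 and -1.24 to -1.18 for the same comparisons. Median scaling over all probes moved the median of all genes to 0.184 at 4 µg minus control and to 0.15 at 4 µg minus 2 µg. With it TXNIP was -1.33 (-1.52 relative to that median) and ARRDC4 -0.34 (-0.52) at 4 µg minus control, and ARRDC4 was -1.05 (-1.20) at 4 µg minus 2 µg, where an offset of 50 gave -1.04. Called genes then split into 81.8% higher at 4 µg minus control and 89.5% at 4 µg minus 2 µg, against 53.6% and 59.4% in the report. With the authors' table, where the median at 4 µg minus control was 0.105, the shares were 69.4% and 69.1%. Scaling to the median of tested probes gave 43.0% and 49.9%.

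Calls without 1 array ranged from 2471 to 3093 at 2 µg minus control, from 696 to 2002 at 4 µg minus control and from 93 to 559 at 4 µg minus 2 µg. Listed genes called ranged from 18 to 29, from 6 to 18 and from 0 to 5. Against the control, the upper ends 3093 and 2002, and 29 and 18 for listed genes, came from losing an array outside the comparison. The counts 3093 and 2002 equal those of the fit of only the groups compared. The loss of any array in the comparison gave fewer called genes than the 3335, 1760 and 705 with all 6 arrays. Listed genes called against the control were then also fewer than 31 at 2 µg and 17 at 4 µg. Without a detection filter 273 genes were called between the doses, and 7 listed genes at 4 µg minus control, with more genes adjusted over. The cause of the other changes was not tested. Of 26 named list genes, 9 of 19 calls at 2 µg minus control, 4 of 15 at 4 µg minus control and 0 of 4 between the doses held in all 15 alternatives. ARRB1, whose 2 kept probes disagreed, is counted among those that held at each dose against the control. MXD1 at both doses and TXN2 at 2 µg held in the 14 run for them, since detection on all arrays left them out. The probes of MXD1 and TXN2 entered the tests only through the groups where they were high, so their calls are a description. Deviations of same-numbered arrays correlated at -0.04, -0.09 and 0.11 across genes, which are not independent. With 2 arrays per group these values cannot settle whether the replicate numbers paired the samples. With the replicate block 3330, 1753 and 709 genes were called, against 3335, 1760 and 705 without the block, and SCD at 4 µg minus control was no longer called (adjusted p = 0.0502), whereas HK2 was (0.0443).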
